A study of Mus musculus with 8 samples.

Results

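The dual-specificity MAPK phosphatases are a small family of enzymes that switch off the mitogen-activated protein kinases. The 10 genes described here, Dusp1, Dusp2, Dusp4, Dusp5, Dusp6, Dusp7, Dusp8, Dusp9, Dusp10 and Dusp16, were taken by gene symbol from the 55359 gene identifiers of the count table. Their RNA was measured in MLO-Y4 cells, an immortalized mouse line used as a model of osteocytes, which live inside mineralized bone and respond to mechanical strain. All groups came from this 1 line, which the labels call wild type, and were grown on collagen-coated dishes. In the irradiated group (4 libraries) the medium was taken off and the cells received light of an Er:YAG laser, an infrared laser used in dentistry, at 6 J/cm2 for 1 min. The wavelength was 2940 nm, the distance 25 cm and the dish size 35 mm. The non-irradiated group (4 libraries) received no laser light, and the labels do not say whether its medium was taken off as well. RNA was collected 6 h after irradiation and sequenced after poly(A) enrichment. The question was which of these genes differed between irradiated and non-irradiated cells at that time.

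A MAP kinase is active only while both a threonine and a tyrosine of its activation loop carry phosphate. The dual-specificity phosphatases remove both, which ends the signal. The family falls into 3 classes by place in the cell and by preferred kinase. Dusp1, Dusp2, Dusp4 and Dusp5 encode nuclear enzymes whose genes are themselves induced when MAP kinases are active, Dusp6, Dusp7 and Dusp9 encode cytoplasmic enzymes that prefer the kinase ERK, and Dusp8, Dusp10 and Dusp16 encode enzymes that prefer the stress kinases JNK and p38. Because many of these genes are switched on by the kinases they restrain, their RNA is widely read as a record of recent MAP kinase activity.

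Promoter sequences are shown first for 4 members that between them cover the kinds of outcome reported further on: Dusp5 had the largest difference between the groups, Dusp10 was the lower one in irradiated cells, and Dusp1 and Dusp8 share a perfect cAMP response element (CRE), while Dusp1 rose and Dusp8 did not pass the test. The RefSeq table of promoters (build GRCm38.p6) matched 8 of the 10 members, and Dusp4 and Dusp9 were not among the matches. Each line gives the 250 bases before the RefSeq start, 5′ to 3′ on the gene's own strand. Capitals mark matches to CRE (TGACGTCA), to its shorter core (TGACG), to the E box (CACGTG) or to the serum response element core known as the CArG box. The Dusp5 sequence lies at chr19:53528895-53529144 on the plus strand, Dusp10 at chr1:184034131-184034380 on the plus strand, Dusp1 at chr17:26508473-26508722 on the minus strand and Dusp8 at chr7:142095285-142095534 on the minus strand.
Dusp5: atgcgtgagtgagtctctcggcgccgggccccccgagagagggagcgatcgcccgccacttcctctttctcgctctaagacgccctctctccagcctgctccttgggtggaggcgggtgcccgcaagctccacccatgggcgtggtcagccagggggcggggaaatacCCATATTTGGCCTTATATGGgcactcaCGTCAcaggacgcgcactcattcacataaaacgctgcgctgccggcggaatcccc
Dusp10: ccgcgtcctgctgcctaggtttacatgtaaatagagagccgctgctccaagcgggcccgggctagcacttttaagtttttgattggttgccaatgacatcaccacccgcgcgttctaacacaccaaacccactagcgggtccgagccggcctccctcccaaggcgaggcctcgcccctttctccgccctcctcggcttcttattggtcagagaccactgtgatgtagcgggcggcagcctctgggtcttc
Dusp1: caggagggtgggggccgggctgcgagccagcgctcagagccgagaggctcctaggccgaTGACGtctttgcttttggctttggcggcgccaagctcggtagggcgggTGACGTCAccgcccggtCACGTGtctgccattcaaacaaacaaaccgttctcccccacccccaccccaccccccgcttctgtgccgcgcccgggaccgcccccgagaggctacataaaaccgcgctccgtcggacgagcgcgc
Dusp8: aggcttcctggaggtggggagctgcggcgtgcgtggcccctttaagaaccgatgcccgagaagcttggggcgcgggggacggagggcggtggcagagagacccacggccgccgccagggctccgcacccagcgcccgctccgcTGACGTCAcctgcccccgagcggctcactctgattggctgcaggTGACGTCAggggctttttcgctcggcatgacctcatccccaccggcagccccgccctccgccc

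Dusp5 holds 2 adjoining CArG boxes, at positions -82 to -73 and -72 to -63 counted back from the start. No other matched member holds one, so 1 of 8 did, against 1.47% of 32851 mouse promoters searched in the same way. The full CRE was present in 2 of 8 members, against 1.55% of all promoters: Dusp1 holds it at -143 to -136, and Dusp8 holds it at -107 to -100 and again at -63 to -56. The CRE core, which lies within every full CRE, was present in 4 of 8 members and in 17.8% of all promoters. The E box was found in Dusp1 (-126 to -121) and Dusp2 (-109 to -104), that is in 2 of 8 members against 6.02% of all promoters.

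The GC box (GGGCGG) was in 6 of 8 members and in 32.7% of all promoters; Dusp6 and Dusp7 were the members without it. The AP-1 site (TGANTCA), the ETS site (CCGGAA) and the TATA box (TATAAA) were in 0 of 8 members, against 6.75%, 12.0% and 12.4% of all promoters. All 8 windows were richer in G and C than the median promoter (52.4%), between 56.4% in Dusp6 and 77.2% in Dusp7. Both strands were searched for every motif, and a match is a description of letters only.

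**Figure D1:**
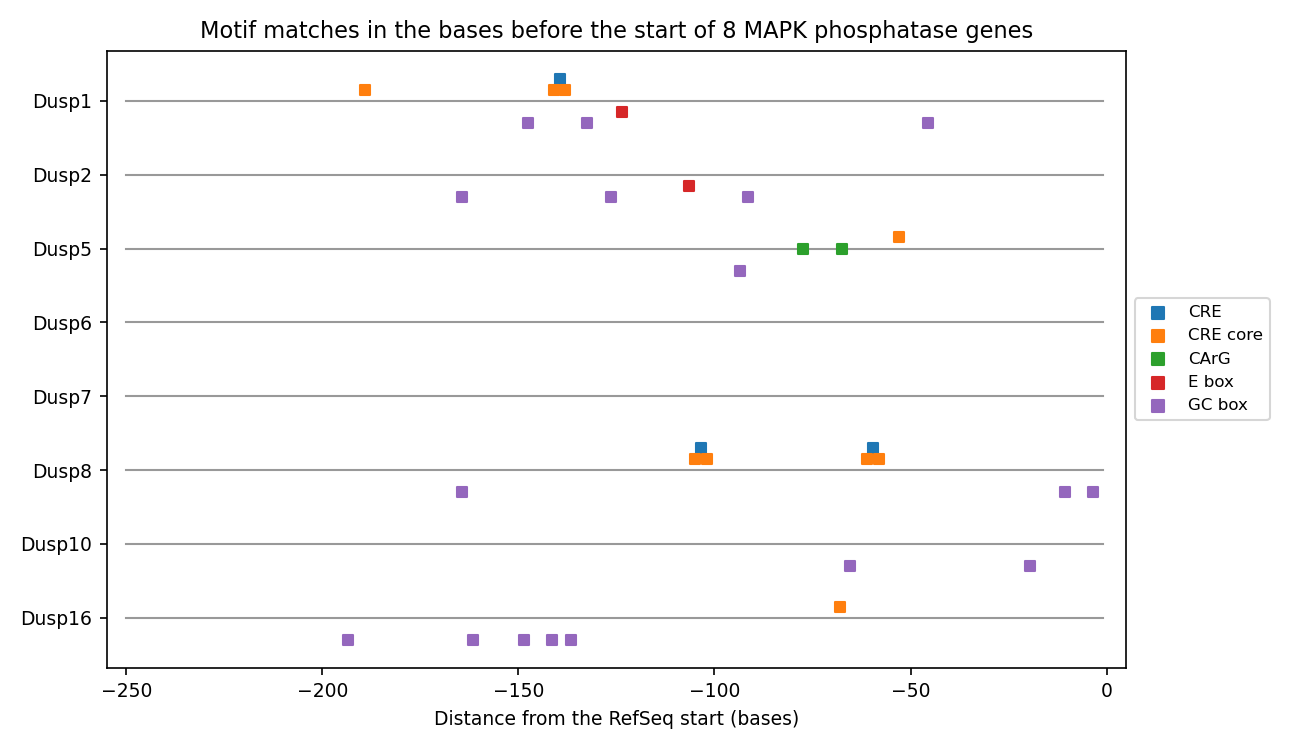
Motif matches in the 250 bases before the RefSeq start of 8 MAPK phosphatase genes, with the distance from the start in bases on the x axis and 1 line for each gene. Each square is the centre of a match, with a separate height for each motif; the paired CArG squares appear on the Dusp5 line alone, and CRE squares on the Dusp1 and Dusp8 lines.

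Library totals ran between 43786209 and 51734166 counts, and 19034 to 19508 genes had a count in each library. Libraries are called L5 to L8 (irradiated) and C5 to C8 (non-irradiated) after the numbers in the table's columns. Over all genes the first principal component (21.3% of the variance) separated the groups, and L5 and L7 lay at opposite ends of the second. The osteocyte label was checked against 8 markers: Sost, Mepe and Fgf23, which mark mature osteocytes, had 0 counts in all libraries, and Dmp1 had 82 counts over the 8 libraries. A count of 0 allows up to 0.0685 CPM (3 counts in the smallest library) if each count is 1 read, and more if a fragment adds several counts. Of the 4 tested osteocyte markers Pdpn, Gja1 and Cd44 rose (log2 fold changes 0.32, 0.35 and 0.22) and Phex did not pass the test (0.1), and the list summed to 1900.5 to 1962.2 CPM in irradiated and 1530.2 to 1711.5 CPM in non-irradiated libraries. Of 5 tested osteoblast markers Runx2 (0.24) and Alpl (0.3) rose, and Sp7, Col1a1 and Bglap did not pass the test. The list summed to 1176.5 to 1272.2 CPM in irradiated and 1102.8 to 1235.3 CPM in non-irradiated libraries. Most of that sum was Col1a1 (1140.3 ± 40.6 CPM in irradiated and 1112.1 ± 59.9 CPM in non-irradiated libraries, log2 fold change 0.04). The labels do not say that the libraries came from separate cultures, so the p-values refer to variation among these 8 libraries, some or all of which may be technical. In bulk RNA a change in the kinds of cells present and a change in RNA per cell cannot be told apart. Of 5 macrophage markers Ptprc and Adgre1 were at 0 and Lyz2 had 11 counts over the 8 libraries. Csf1r averaged 26.2 ± 1.2 CPM in irradiated and 14.2 ± 1.17 CPM in non-irradiated libraries (SD, n = 4 each), and Cd68 averaged 3.52 ± 0.394 CPM in irradiated and 4.45 ± 0.459 CPM in non-irradiated libraries. The summed macrophage list, most of it Csf1r, ran between 28.1 and 31.4 CPM in irradiated and between 17.4 and 20.9 CPM in non-irradiated libraries, and 1 of its 2 tested genes rose. The part of these marker lists in the results was not tested. Endothelial, adipocyte and keratinocyte lists summed to at most 3.13 CPM in irradiated and 3.38 CPM in non-irradiated libraries.

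Of the 10 phosphatase genes 6 rose in irradiated cells (Dusp1, Dusp2, Dusp4, Dusp5, Dusp6 and Dusp7), 1 fell (Dusp10) and 3 did not pass the test (Dusp8, Dusp9 and Dusp16). A gene was called when its adjusted p in edgeR's quasi-likelihood test, corrected by the Benjamini-Hochberg method over 15164 tested genes, was under 0.05. Among all tested genes 15.0% were called, 8.22% higher and 6.75% lower. All 10 members passed the filter on low counts. The irradiated and non-irradiated libraries did not overlap in CPM (counts scaled to the same library size, with TMM factors) for the 7 called members, and 18.5% of all tested genes were separated in this way, 9.76% with irradiated above and 8.78% with irradiated below. The median log2 fold change was 0.29 over the members and -0.007 over all tested genes. With library totals alone as the scale, the higher share of all called genes was 43.8% in place of 54.9%, and the members kept their directions and calls.

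By class, all 4 of the inducible nuclear class rose, with a median log2 fold change of 0.56. Of the 3 cytoplasmic members that prefer ERK 2 rose, and their median was 0.24. Of the 3 members that prefer JNK and p38 none rose and 1 fell, with a median of -0.1; by edgeR at an unadjusted p under 0.05, by DESeq2 and by limma-voom the count of rises in that class was also 0. Whether the classes differed was not tested, since each holds 3 or 4 genes.

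**Figure D2:**
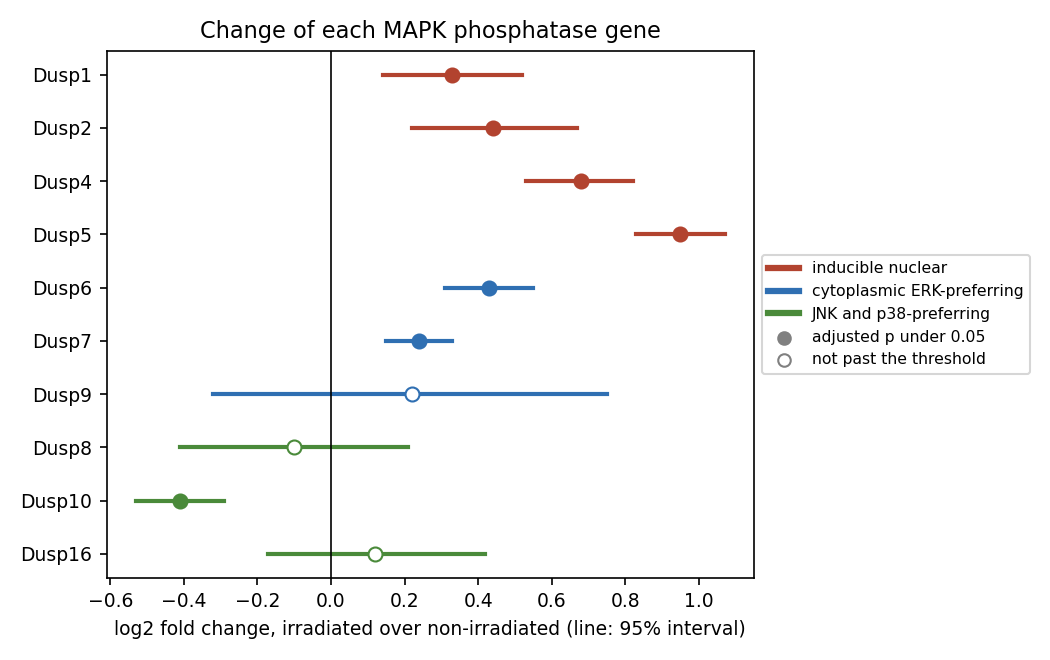
Log2 fold change of each of the 10 MAPK phosphatase genes, irradiated over non-irradiated, on the x axis, with 1 gene a row. Points are edgeR estimates and lines their 95% intervals; the intervals of Dusp8, Dusp9 and Dusp16 cross 0, that of Dusp10 lies below it and the other 6 lie above it.

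Dusp5 (ENSMUSG00000034765.7), whose product is a nuclear phosphatase that binds and inactivates ERK alone, changed most. It had 77.9, 70.3, 70.9 and 79.3 CPM in L5 to L8, against 39.7, 41.1, 37.1 and 36.6 CPM in C5 to C8. Every irradiated library lay well above every non-irradiated one. The means were 74.6 ± 4.63 CPM in irradiated and 38.6 ± 2.16 CPM in non-irradiated libraries (SD, n = 4 each), a 1.93-fold rise with a log2 fold change of 0.95 (SE 0.056, 95% interval 0.83 to 1.07, edgeR adjusted p = 6.46e-10). By fold it ranked 42 among the 1247 genes called higher, and 3.02% of all tested genes had as large a change in either direction. The raw counts ran between 3073 and 3949 in irradiated and between 1770 and 1922 in non-irradiated libraries.

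Dusp4 (ENSMUSG00000031530.7), a nuclear phosphatase of ERK and, in cells, of JNK and p38, changed next most. It had 106.5, 91.1, 110.7 and 104.0 CPM in L5 to L8, against 67.5, 71.2, 59.1 and 59.8 CPM in C5 to C8. The groups did not overlap, and L6 was the lowest irradiated library. Dusp4 averaged 103.1 ± 8.44 CPM in irradiated and 64.4 ± 5.89 CPM in non-irradiated libraries, 1.6-fold higher (log2 fold change 0.68, SE 0.068, 95% interval 0.53 to 0.82, edgeR adjusted p = 5.39e-06). Its fold ranked 102 among the genes called higher.

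Dusp2 (ENSMUSG00000027368.7), a nuclear phosphatase first known from activated immune cells, had 18.3, 18.9, 20.0 and 20.8 CPM in L5 to L8, against 16.3, 15.7, 10.8 and 14.6 CPM in C5 to C8. The groups were separate, and C7 was the lowest library. The log2 fold change was 0.44 (SE 0.106, 95% interval 0.22 to 0.67, edgeR adjusted p = 0.00682), that is 1.36-fold, on means of 19.5 ± 1.11 CPM in irradiated and 14.3 ± 2.46 CPM in non-irradiated libraries.

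Dusp1 (ENSMUSG00000024190.8) encodes the founding member of the family, which acts on p38, JNK and ERK and is an immediate-early gene in many cells. It had 23.0, 23.3, 22.1 and 24.2 CPM in L5 to L8, against 19.2, 21.4, 15.2 and 17.7 CPM in C5 to C8. The highest non-irradiated library, C6, came close to the lowest irradiated one, L7. Means were 23.1 ± 0.866 CPM in irradiated and 18.4 ± 2.63 CPM in non-irradiated libraries, and the rise was 1.26-fold (log2 fold change 0.33, SE 0.089, 95% interval 0.14 to 0.52, edgeR adjusted p = 0.0152). Dusp1 was the member whose call depended on single libraries: without C7 the log2 fold change was 0.25 (edgeR adjusted p = 0.0607), and without L8 it was 0.309 (edgeR adjusted p = 0.0538). Its exons overlap those of Ergic1 on the opposite strand, and the sources used here do not say whether counting used strand. Ergic1 averaged 186.0 ± 5.68 CPM in irradiated and 189.9 ± 6.43 CPM in non-irradiated libraries (log2 fold change -0.03, edgeR adjusted p = 0.659). If counting ignored strand, reads of the 2 genes cannot be told apart where they overlap.

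Among the cytoplasmic phosphatases, Dusp6 (ENSMUSG00000019960.9), a feedback regulator that holds ERK in the cytoplasm and is a classic target of the fibroblast growth factor pathway, had 50.2, 47.9, 51.3 and 56.9 CPM in L5 to L8, against 40.2, 37.3, 37.2 and 38.4 CPM in C5 to C8. The groups were separate. Dusp6 averaged 51.6 ± 3.86 CPM in irradiated and 38.3 ± 1.41 CPM in non-irradiated libraries, a 1.35-fold rise (log2 fold change 0.43, SE 0.059, 95% interval 0.31 to 0.55, edgeR adjusted p = 3.07e-05). Dusp7 (ENSMUSG00000053716.10), the relative of Dusp6 with the same preference, had 103.1, 106.3, 107.6 and 114.3 CPM in L5 to L8, against 95.5, 90.5, 92.4 and 86.6 CPM in C5 to C8. Here too the groups did not overlap, but the change was the smallest of the 6 rises, 1.18-fold (log2 fold change 0.24, SE 0.043, 95% interval 0.15 to 0.33, edgeR adjusted p = 0.000588). The Dusp7 means were 107.8 ± 4.72 CPM in irradiated and 91.2 ± 3.74 CPM in non-irradiated libraries.

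Dusp9 (ENSMUSG00000031383.9), the X-linked member of this class, known for its role in placenta, had 2.36, 3.84, 2.91 and 2.91 CPM in L5 to L8, against 2.84, 2.55, 3.62 and 1.35 CPM in C5 to C8. The groups overlapped, and the lowest value was in C8. Its log2 fold change was 0.22 with a 95% interval of -0.32 to 0.75 (edgeR adjusted p = 0.656), on 68 to 198 counts a library. It was 0.002 without C8, 0.079 without L6 and 0.422 without C7. A change of the size seen for Dusp6 lies inside the interval and is not excluded.

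**Figure D3:**
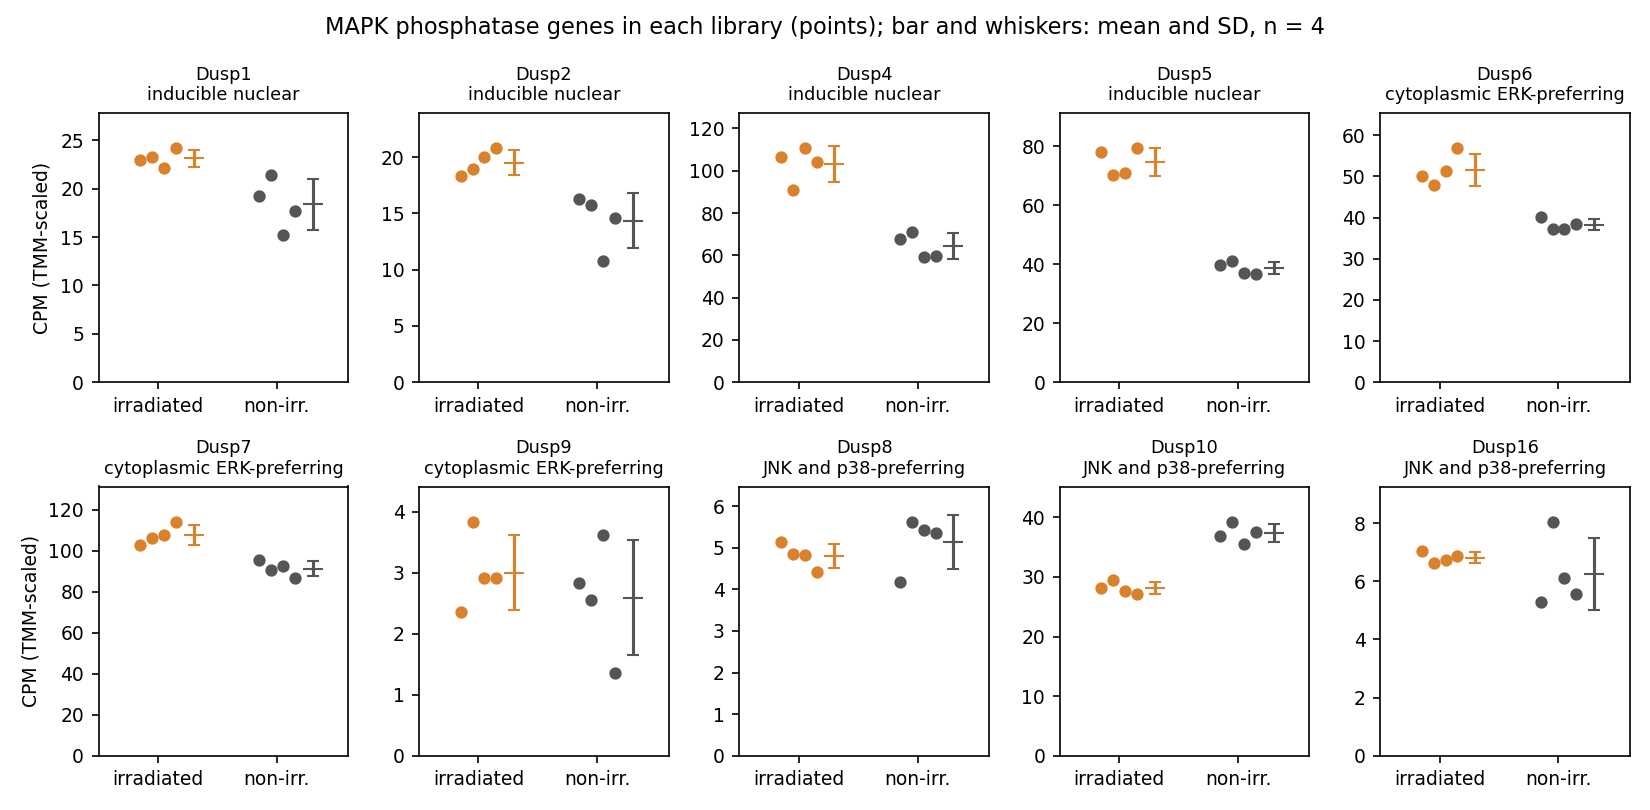
CPM of each MAPK phosphatase gene (y axis, 1 panel a gene, each from 0) in the 4 irradiated and 4 non-irradiated libraries on the x axis. Points are libraries, bars the means and whiskers the SD; the 2 groups of points are apart for Dusp1, Dusp2, Dusp4, Dusp5, Dusp6, Dusp7 and Dusp10 and mixed for Dusp8, Dusp9 and Dusp16.

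Dusp10 (ENSMUSG00000039384.9), a phosphatase of JNK and p38 studied mainly in immune cells, went the other way. It had 28.2, 29.5, 27.7 and 27.1 CPM in L5 to L8, against 36.9, 39.3, 35.6 and 37.6 CPM in C5 to C8. The groups were separate, and each was tight. Dusp10 averaged 28.1 ± 0.98 CPM in irradiated and 37.4 ± 1.53 CPM in non-irradiated libraries, 1.33-fold lower (log2 fold change -0.41, SE 0.059, 95% interval -0.53 to -0.29, edgeR adjusted p = 5.37e-05). It ranked 227 by fold among the 1023 genes called lower.

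The other members that prefer JNK and p38 did not pass the test. Dusp8 (ENSMUSG00000037887.12), known from brain and heart, had 5.14, 4.85, 4.82 and 4.42 CPM in L5 to L8, against 4.18, 5.63, 5.42 and 5.35 CPM in C5 to C8. The irradiated values lay within the non-irradiated range, and the log2 fold change was -0.1 (95% interval -0.41 to 0.21, edgeR adjusted p = 0.747). It was -0.181 without C5, -0.052 without C6 and -0.06 without L8. Dusp16 (ENSMUSG00000030203.18), a phosphatase of JNK that shuttles between nucleus and cytoplasm, had 7.05, 6.61, 6.72 and 6.87 CPM in L5 to L8, against 5.3, 8.05, 6.11 and 5.55 CPM in C5 to C8. Again the irradiated libraries fell inside the non-irradiated range, with a log2 fold change of 0.12 (95% interval -0.17 to 0.42, edgeR adjusted p = 0.648). It was 0.269 without C6, 0.056 without C5 and 0.071 without C8. The interval of Dusp16 includes a rise of the size found for Dusp7, and that of Dusp8 includes a fall of the same size.

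Some libraries were high or low for several members at once. L8 was the highest irradiated library for Dusp1, Dusp2, Dusp5, Dusp6 and Dusp7, and C7 was the lowest non-irradiated library for Dusp1, Dusp2, Dusp4, Dusp6 and Dusp10. C6 was the highest non-irradiated library for Dusp1, Dusp4, Dusp5, Dusp8, Dusp10 and Dusp16. The spread within the non-irradiated group was widest for Dusp9 (SD 36.4% of the mean), Dusp16 (19.9%), Dusp2 (17.2%) and Dusp1 (14.3%). In the irradiated group these 4 genes had an SD of 20.4%, 2.77%, 5.67% and 3.74% of the mean.

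Levels were compared between members in TPM, that is with counts divided by transcript length and then set to the same sum in every library. In irradiated libraries Dusp4 was the most abundant (91.0 ± 7.8 TPM), followed by Dusp7 (81.2 ± 3.43 TPM), with overlapping ranges, and by Dusp5 (73.0 ± 4.48 TPM). In non-irradiated libraries Dusp7 came first (68.4 ± 3.37 TPM), above Dusp4 (56.7 ± 5.93 TPM) and Dusp5 (37.7 ± 2.62 TPM), each with a separate range. The ranges of Dusp7 (lowest 63.8 TPM) and Dusp4 (highest 63.7 TPM) all but met. Which member came first depends on the transcript lengths used: in CPM Dusp7 averaged more than Dusp4 in irradiated libraries too (107.8 against 103.1 CPM).

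Lower in the order, Dusp6 stood at 44.6 ± 3.31 TPM in irradiated and 33.0 ± 1.25 TPM in non-irradiated libraries. Dusp10 stood at 24.4 ± 0.814 TPM in irradiated and 32.2 ± 1.62 TPM in non-irradiated libraries, where its range overlapped that of Dusp6. Dusp2 (29.2 ± 1.64 TPM in irradiated and 21.4 ± 3.8 TPM in non-irradiated libraries) and Dusp1 (28.1 ± 0.946 and 22.3 ± 3.44 TPM in the same groups) overlapped each other in both groups. In the irradiated group Dusp10 lay below both, and in the non-irradiated group above both. That change of order depends on the transcript lengths used. In CPM, without division by length, Dusp10 lay above both in each group. Irradiated libraries averaged 28.1 CPM for Dusp10, 23.1 for Dusp1 and 19.5 for Dusp2, and non-irradiated ones 37.4, 18.4 and 14.3 CPM. Dusp16, Dusp9 and Dusp8 stayed at the bottom, between 2.42 and 3.23 TPM on average in irradiated and between 2.3 and 2.96 TPM in non-irradiated libraries, and neighbours among them overlapped in each group.

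**Figure D4:**
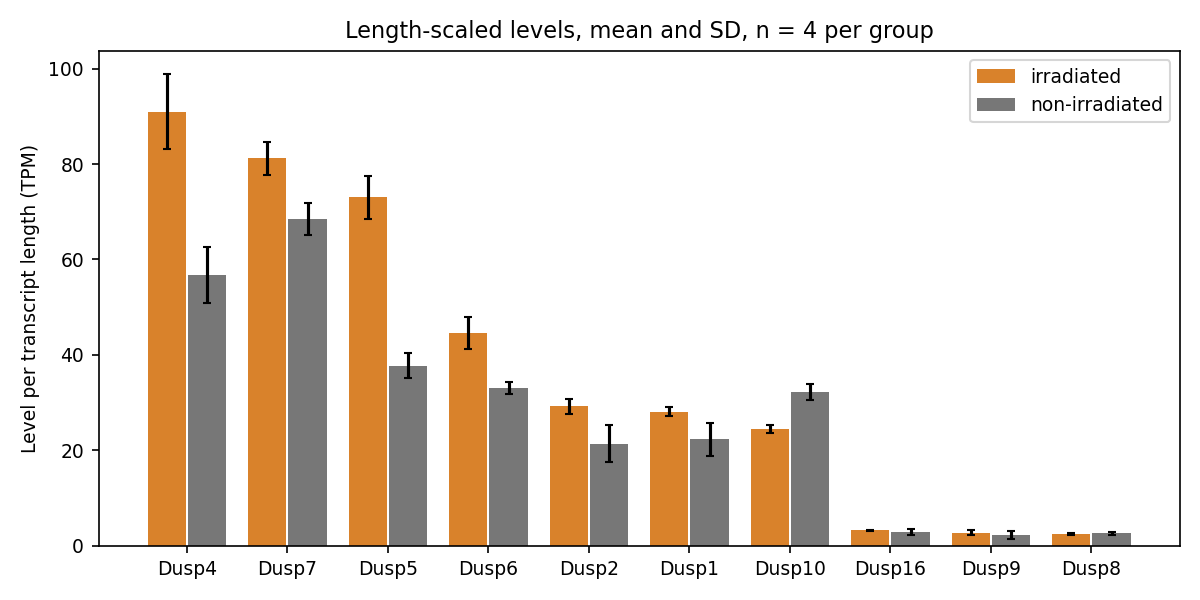
Length-scaled level (TPM, y axis) of the 10 MAPK phosphatase genes (x axis) in irradiated and non-irradiated libraries, mean with SD as whiskers, n = 4 per group. Dusp7 is the highest of the non-irradiated bars and Dusp4 of the irradiated ones. Dusp8, Dusp9 and Dusp16 have the lowest bars in both groups.

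Added over the 10 members, the level was 379.6 ± 14.7 TPM in irradiated and 279.5 ± 19.2 TPM in non-irradiated libraries. The inducible nuclear class made up 58.3% ± 1.11 of that sum in irradiated and 49.3% ± 2.14 in non-irradiated libraries. The cytoplasmic class that prefers ERK made up 33.8% ± 1.04 in irradiated and 37.2% ± 2.05 in non-irradiated libraries. Its level was higher in irradiated libraries although its share was lower (128.4 ± 6.42 TPM, against 103.8 ± 4.79 TPM in non-irradiated libraries). The share of the class that prefers JNK and p38 was 7.92% ± 0.538 in irradiated and 13.5% ± 0.704 in non-irradiated libraries. Its level was 30.0 ± 0.86 TPM in irradiated and 37.8 ± 2.31 TPM in non-irradiated libraries. Dusp5 alone took 19.2% ± 0.811 of the sum in irradiated and 13.5% ± 0.211 in non-irradiated libraries. Dusp10 took 6.43% ± 0.469 in irradiated and 11.6% ± 0.469 in non-irradiated libraries. These levels and shares follow from the gene values above and were not tested.

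A ratio of counts within 1 library needs no scaling between libraries. The ratio of Dusp5 to Dusp10 was 2.76, 2.39, 2.56 and 2.92 in L5 to L8, against 1.08, 1.05, 1.04 and 0.974 in C5 to C8. Thus counts of both genes were nearly equal in every non-irradiated library, and Dusp5 exceeded Dusp10 in every irradiated one. The ratio of Dusp4 to Dusp10 averaged 3.67 ± 0.396 in irradiated and 1.72 ± 0.116 in non-irradiated libraries. That of Dusp5 to Dusp6 averaged 1.45 ± 0.0782 in irradiated and 1.01 ± 0.0649 in non-irradiated libraries. The ratio of Dusp4 to Dusp6 ran between 1.83 and 2.16 in irradiated and between 1.56 and 1.91 in non-irradiated libraries, so these groups overlapped.

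The other tested genes with the most similar pattern over the 8 libraries were sought for the 2 members that changed most. Similarity was the root mean square difference of centred log2 CPM. The search left out genes without a symbol, with a predicted-gene or clone name, or with a symbol shared by several identifiers. Nearest to Dusp5 were Ccl9 (0.078), Ptpn22 (0.085) and Igfbp5 (0.086). Nearest to Dusp4 were Clcf1 (0.048), Lgr6 (0.061) and Epg5 (0.062). These distances are descriptions of 8 libraries in 2 groups.

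The remaining genes of the MAP kinase pathways were described from lists made by role. Of all tested genes 8.22% rose and 6.75% fell, and whether a list differed from these shares was not tested. Among 19 tested genes of the ERK feedback and immediate-early list, which holds genes that ERK activity can induce and inhibitors of the pathway, 11 rose and 1 fell, and the median log2 fold change was 0.38, against -0.007 over all tested genes. The transcription factor gene Egr3 averaged 43.4 ± 3.39 CPM in irradiated and 21.1 ± 1.64 CPM in non-irradiated libraries (log2 fold change 1.04, edgeR adjusted p = 5.24e-09). Phlda1, an early response gene, averaged 155.0 ± 13.1 CPM in irradiated and 96.5 ± 3.29 CPM in non-irradiated libraries (log2 fold change 0.68, edgeR adjusted p = 2.24e-08). The Sprouty gene Spry4, an inhibitor of signalling from growth factor receptors to ERK, averaged 5.5 ± 0.499 CPM in irradiated and 3.46 ± 0.481 CPM in non-irradiated libraries (log2 fold change 0.67, edgeR adjusted p = 0.00683). Fos, the gene of the list that fell, was picked out after its values were seen. It averaged 8.66 ± 0.894 CPM in irradiated and 13.2 ± 2.17 CPM in non-irradiated libraries (log2 fold change -0.61, edgeR adjusted p = 0.00153). Without C7, as with library totals alone, with counts divided by 4 or with DESeq2, 2 genes of this list fell. Another 7 did not pass the test. They include Egr1 (log2 fold change -0.06, edgeR adjusted p = 0.374) and Etv5 (0.01, edgeR adjusted p = 0.958), also picked out after their values were seen. Among the 11 rises, the call of Ier2 (0.17, edgeR adjusted p = 0.0485) was lost in 9 of 15 alternatives, which include leaving out each library.

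The kinase cascades that the phosphatases act on were described next. Mapk3, which encodes the kinase ERK1 and was named for its role after its values were seen, averaged 112.6 ± 4.22 CPM in irradiated and 118.7 ± 4.93 CPM in non-irradiated libraries (log2 fold change -0.08, edgeR adjusted p = 0.244). Of 22 tested genes of the ERK cascade 1 rose and 6 fell, with a median of -0.02. The shares over all tested genes were 8.22% higher and 6.75% lower. The small GTPase gene Rras averaged 12.3 ± 1.64 CPM in irradiated and 17.9 ± 1.91 CPM in non-irradiated libraries (log2 fold change -0.54, edgeR adjusted p = 0.00102). The scaffold gene Ksr1 averaged 48.3 ± 5.08 CPM in irradiated and 66.8 ± 4.1 CPM in non-irradiated libraries (log2 fold change -0.47, edgeR adjusted p = 6.96e-05). Hras had a log2 fold change of -0.18 (edgeR adjusted p = 0.0374) and was not called when C5, C7, C8, L5, L6 or L8 was left out (edgeR adjusted p between 0.0698 and 0.135). The count of 6 lower was 3 without C5, C7, C8 or L6, and the 1 rise was lost without C7, C8, L5, L6, L7 or L8.

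Of 10 tested genes of the p38 branch 5 rose and 0 fell, with a median of 0.09, against 8.22% higher and 6.75% lower among all tested genes. By edgeR at an unadjusted p under 0.05, by DESeq2 and by limma-voom 0 fell as well. The kinase gene Map2k6, which activates p38, averaged 11.5 ± 0.986 CPM in irradiated and 8.72 ± 0.664 CPM in non-irradiated libraries (log2 fold change 0.4, edgeR adjusted p = 0.0118). Mapkapk2, a kinase downstream of p38, had a log2 fold change of 0.18 (edgeR adjusted p = 0.012, and 0.0557 without C7). Mapk14, the gene of p38 alpha, had 0.16 (edgeR adjusted p = 0.0182, but 0.0579 without C8 and 0.06 without L7). The count of rises in this branch was 2 without C7 or L7, 3 without C8, L5 or L8, and 3 with library totals alone.

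In the JNK branch 1 of 6 tested genes fell and 0 rose (2 at an unadjusted p under 0.05 by edgeR, 1 by DESeq2, 0 by limma-voom, and 1 without C6), with a median of 0.04. By comparison, 15.0% of all tested genes were called, 8.22% higher and 6.75% lower. The scaffold gene Mapk8ip1 averaged 18.8 ± 1.08 CPM in irradiated and 23.2 ± 1.09 CPM in non-irradiated libraries (log2 fold change -0.3, edgeR adjusted p = 0.00679). In the ERK5 branch 1 of 4 tested genes, Map3k2, rose (log2 fold change 0.19, edgeR adjusted p = 0.0294), and the call was lost without C5, C7, C8, L5, L7 or L8 (edgeR adjusted p between 0.0614 and 0.115). Of 17 tested upstream kinases and adaptors of the stress pathways, 0 were called by edgeR, DESeq2 or limma-voom, and 2 rose at an unadjusted p under 0.05. These were Taok1 (log2 fold change 0.1, edgeR adjusted p = 0.103) and Map3k20 (0.11, edgeR adjusted p = 0.136), which both passed without C6 (edgeR adjusted p = 0.00491 for Taok1 and 0.0112 for Map3k20).

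Other phosphatases were compared with the members in the same way, beside 15.0% called among all tested genes. Among 14 tested atypical dual-specificity phosphatases and slingshot genes, which lack the kinase-binding domain of the members, 0 were called by edgeR and by limma-voom. By DESeq2 1 of them rose, and at an unadjusted p under 0.05 by edgeR 1 rose and 2 fell. The median over the list was -0.05 on the log2 scale. The slingshot genes Ssh1 (0.17, edgeR adjusted p = 0.0606) and Ssh3 (-0.12, edgeR adjusted p = 0.145) came nearest to the threshold, and Ssh1 passed it without C6 (edgeR adjusted p = 0.0327) or L6 (edgeR adjusted p = 0.00706). Of 7 tested phosphatases of other families that act on MAP kinases 1 fell, against 6.75% of all tested genes, and the list median was -0.01. The gene that fell was the phosphatase subunit gene Ppp2r1a (log2 fold change -0.1, edgeR adjusted p = 0.0382). That call was lost without C5, C8, L5 or L7 (edgeR adjusted p between 0.0941 and 0.134), and 2 genes fell without C6.

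**Figure D5:**
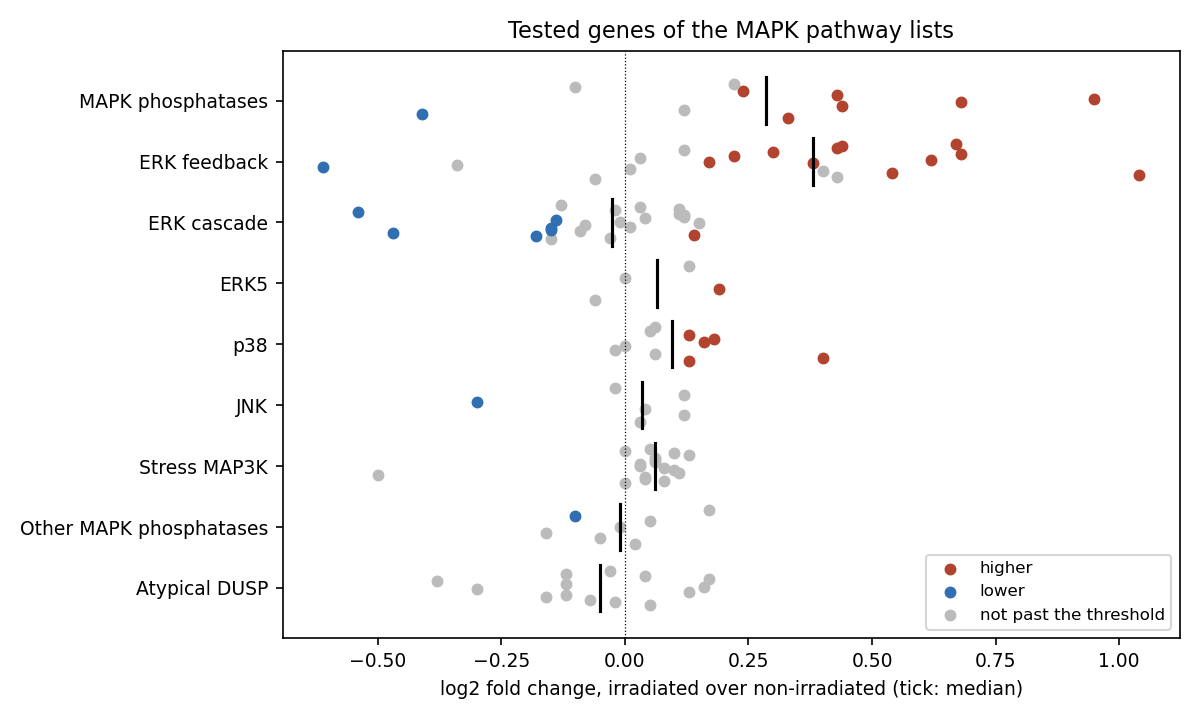
Log2 fold change, irradiated over non-irradiated (x axis), of every tested gene in the MAPK phosphatase family and in 8 lists of pathway genes, 1 row a list. Each point is a gene, marked by whether it passed the test, and ticks give medians; the family (0.29) and the ERK feedback list (0.38) have the medians farthest from 0.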

How the data were processed

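RNA-seq of 8 libraries was analysed from 1 table of estimated counts per gene. The authors deposited these estimated counts as whole numbers without normalization. Per the submitters' processing notes, the build was GRCm39 and the tools were HISAT2 2.2.1, StringTie 2.1.7, Trimmomatic 0.39, DESeq2 1.32.0 and FastQC 0.11.9. The sources used here give no settings, annotation release or use of strand. The columns are numbered 5 to 8 and the sample titles 1 to 4, so each column was tied to its group alone. No value column was left unused.

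Symbols and transcript lengths came from GENCODE M21 (GRCm38). They matched 52083 of 55359 identifiers, with 99.6% of all counts. Genes whose exons overlap those of a member were found from the GENCODE M21 coordinates, which are of an older build than that of the counts. TPM were computed from the counts and the longest protein-coding transcript (the longest of any kind where there is none). Dusp29 was matched under its older symbol; Rps6ka4 and Spry3 were not analysed here.

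Genes passing filterByExpr of edgeR 4.0.16 in R 4.3.3 (minimum count 10, 15164 genes) were scaled by TMM (factors 0.989 to 1.01) and tested by quasi-likelihood (glmQLFit, robust, group as the only term) with Benjamini-Hochberg adjustment and a threshold of 0.05. The code of the fit was also run on simulated counts with a common dispersion for all genes. That run cannot show how well the calls hold in these data, where the spread differs between genes. For genes of low to moderate mean count, the variance of unscaled counts within a group was 4.32 times the mean in irradiated libraries (median). It was 4.21 times the mean in non-irradiated libraries. Counts of such genes thus varied more than single reads alone would. Differences in library total are part of this variation, and its sources were not tested. The members have higher mean counts. Alternatives were DESeq2 1.42.0 (size factors, Wald test), limma 3.58.1 (voom), library totals, no filter, counts divided by 4, a replicate block and leaving out each library.

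The members and the lists were chosen with earlier results of these data known. All members were named, with up to 3 called genes of largest change from each list (or the 2 of lowest p where none passed), and the 3 genes of nearest pattern for the 2 most changed members.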

Additional observations from a re-analysis of the deposited data

How the results depend on the processing

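The members called numbered 6 to 7 over 15 alternatives (5 to 6 higher and 1 lower), and Dusp1 was the member whose call was lost, in 2 of them. The log2 fold change ran between 0.918 and 0.981 for Dusp5 and between -0.431 and -0.383 for Dusp10. Of the members not called, it ran between 0.002 and 0.422 for Dusp9, between 0.056 and 0.269 for Dusp16 and between -0.181 and -0.052 for Dusp8, so their size is unsettled. No estimate of a member changed sign, that of Dusp9 coming within 0.002 of 0. All genes called numbered 1672 to 2696, beside 2270 of 15164 tested genes (15.0%) in the main fit. In that fit 8.22% of all tested genes rose and 6.75% fell. For the 8 pathway lists together 18 genes rose, 11 of them in the ERK feedback list, and 9 fell. Leaving out 1 library gave 13 to 21 rises and 5 to 11 falls in these lists. With the column number as a replicate block the falls numbered 5, the called members 7 and all called genes 1757. Whether same-numbered libraries were handled as pairs is not known. Their deviations from the group means correlated between -0.046 and 0.001, and 0 of 4 irradiated libraries correlated best with their own number. Such correlations cannot show how the cultures were handled. Why the counts of called genes shifted between alternatives was not tested. The intervals of Dusp8, Dusp9 and Dusp16, the members with the fewest counts, are the widest; whether depth or spread between libraries sets them was not tested.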
